A study of Mus musculus with 18 samples.

Results

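The genes described here encode 9 transcription factors that define the hepatocyte: Hnf4a, Cebpa, Cebpb, Foxa1, Foxa2, Foxa3, Onecut1, Prox1 and Nr5a2. They were chosen by symbol, and 8 of the 9 were found among the 23930 genes listed in each library; Onecut1 was not analysed here. The libraries were made from total RNA of whole mouse liver with a targeted panel that reads a single amplicon of each gene. All mice carried floxed Yap alleles (Yap fl/fl) and received an adeno-associated virus at 8 weeks of age, with a TBG promoter that acts in hepatocytes. In the overexpression (OE) groups the virus delivered YAP with EGFP at a dose of 2.0, in the knockout (KO) groups Cre at 0.5 and in the control (Ctrl) groups GFP at 2.0, all in 1 unit of genome copies that each mouse received. After 2 weeks the mice began liquid diet, with 5 days of acclimation and then 4 weeks of ethanol (EtOH-fed) or control diet (pair-fed). EtOH-fed mice had a last gavage of ethanol at 5 g/kg (33% v/v) and pair-fed mice a gavage of maltose-dextrin, both 9 hours before death. Each of the 6 groups (EtOH-fed and pair-fed OE, KO and Ctrl) had 3 libraries, 18 in all. The labels number the libraries of a group without saying that each is a separate mouse, and what the p-values measure is how far libraries differ, which may be technical.

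Hepatocytes keep their identity through a small set of transcription factors that bind each other's promoters and, together, the genes for plasma proteins, lipid transport and bile acid synthesis. HNF4A is the nuclear receptor at the centre of this network, the FOXA proteins open chromatin for the others, and C/EBP factors set the level of metabolic and acute phase genes. YAP, the coactivator held back by the Hippo kinases, binds TEAD factors, and its activation in mouse hepatocytes is known to weaken the hepatocyte programme in favour of a biliary and progenitor one.

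A library held 4680152 to 5806228 reads, and levels are in CPM, reads per gene after each library is brought to the same total; with a single amplicon per gene, levels are compared between libraries and not between genes. In a library, 0 reads of a gene allow up to 3, which is 0.517 to 0.641 CPM, for counting error only. Alb and the other hepatocyte markers were abundant in all 18 libraries, with summed levels of 63236 to 118810 CPM over 8 markers. Yap1 stood at 106.4 to 144 CPM in EtOH-fed and 57.6 to 214 CPM in pair-fed OE, 3.34 to 5.08 CPM in EtOH-fed and 4.18 to 15.1 CPM in pair-fed KO, and 58.1 to 66.6 CPM in EtOH-fed and 51.5 to 60.7 CPM in pair-fed Ctrl libraries. The lowest OE value, 57.6 CPM in pair-fed OE replicate 1, lay among the controls. Cyr61 and Ctgf, also read to check the genotype labels, had 15.7 and 37.5 CPM in that library. In Ctrl libraries they had 4.28 to 8.93 and 9.27 to 27.5 CPM. In EtOH-fed OE replicates 1, 2 and 3 Cyr61 had 9.21, 9.95 and 9.65 CPM, and Ctgf 17.9, 3.5 and 7.41 CPM. Xist exceeded the Y-linked Ddx3y in 5 libraries, namely the 3 pair-fed KO libraries and pair-fed Ctrl replicates 2 and 3, and Ddx3y exceeded Xist in the other 13. The ethanol response of KO mice therefore set 3 libraries with Y-linked reads against 3 with Xist, and there diet and sex cannot be told apart. All EtOH-fed libraries had Y-linked reads, so the responses of Ctrl mice and over the genotypes are also partly confounded with sex. Pair-fed Ctrl alone held both kinds, so a sex term in the fit rests on that group. Where Y-linked libraries are used alone below, 1 pair-fed Ctrl library remains. EtOH-fed KO replicate 3 stood apart from its group, with 748 genes (6.38% of those tested) over 2-fold from both other libraries, against 73 to 590 genes in the rest.

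Across the genotypes, 2 of the 8 factors fell on ethanol and none rose. Cebpa fell by 0.64 ± 0.15 and Nr5a2 by 0.39 ± 0.12 on the log2 scale (estimate ± SE of the mean of the 3 genotypes' responses, adjusted p = 0.00516 and 0.0263). Changes are from limma on log2(CPM + 1), which understates the change of low genes, with p-values adjusted by Benjamini-Hochberg over all 11720 genes that had at least 1 CPM in at least 3 libraries; all 8 factors passed this filter. The same test called 20.5% of all genes, 7.21% higher and 13.3% lower, so that 2 of 8 members called is near the share of all genes. The split of those calls depended on the scaling, with 845 genes higher and 1561 lower on library totals and 1298 higher and 1108 lower with TMM factors. Cebpb, at -0.64 ± 0.24, had the same estimate as Cebpa with a wider error and did not pass (adjusted p = 0.0652). Hnf4a stood at 0.25 ± 0.10 (adjusted p = 0.0973), Foxa3 at 0.53 ± 0.25 (0.137), Prox1 at 0.33 ± 0.15 (0.141), Foxa2 at 0.37 ± 0.27 (0.345) and Foxa1 at -0.07 ± 0.17 (0.799). The median change of the 8 factors was 0.09, against -0.07 for all genes tested. With sex chromosome genes as a term of the fit, 86 genes and 0 members were called, with Cebpa at -0.73 (adjusted p = 0.217) and Nr5a2 at -0.41 (adjusted p = 0.418). Only pair-fed Ctrl held both Xist and Y-linked libraries, so that term was estimated from this group alone. Calls lost under it therefore cannot show what part of a change goes with sex.

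**Figure D1:**
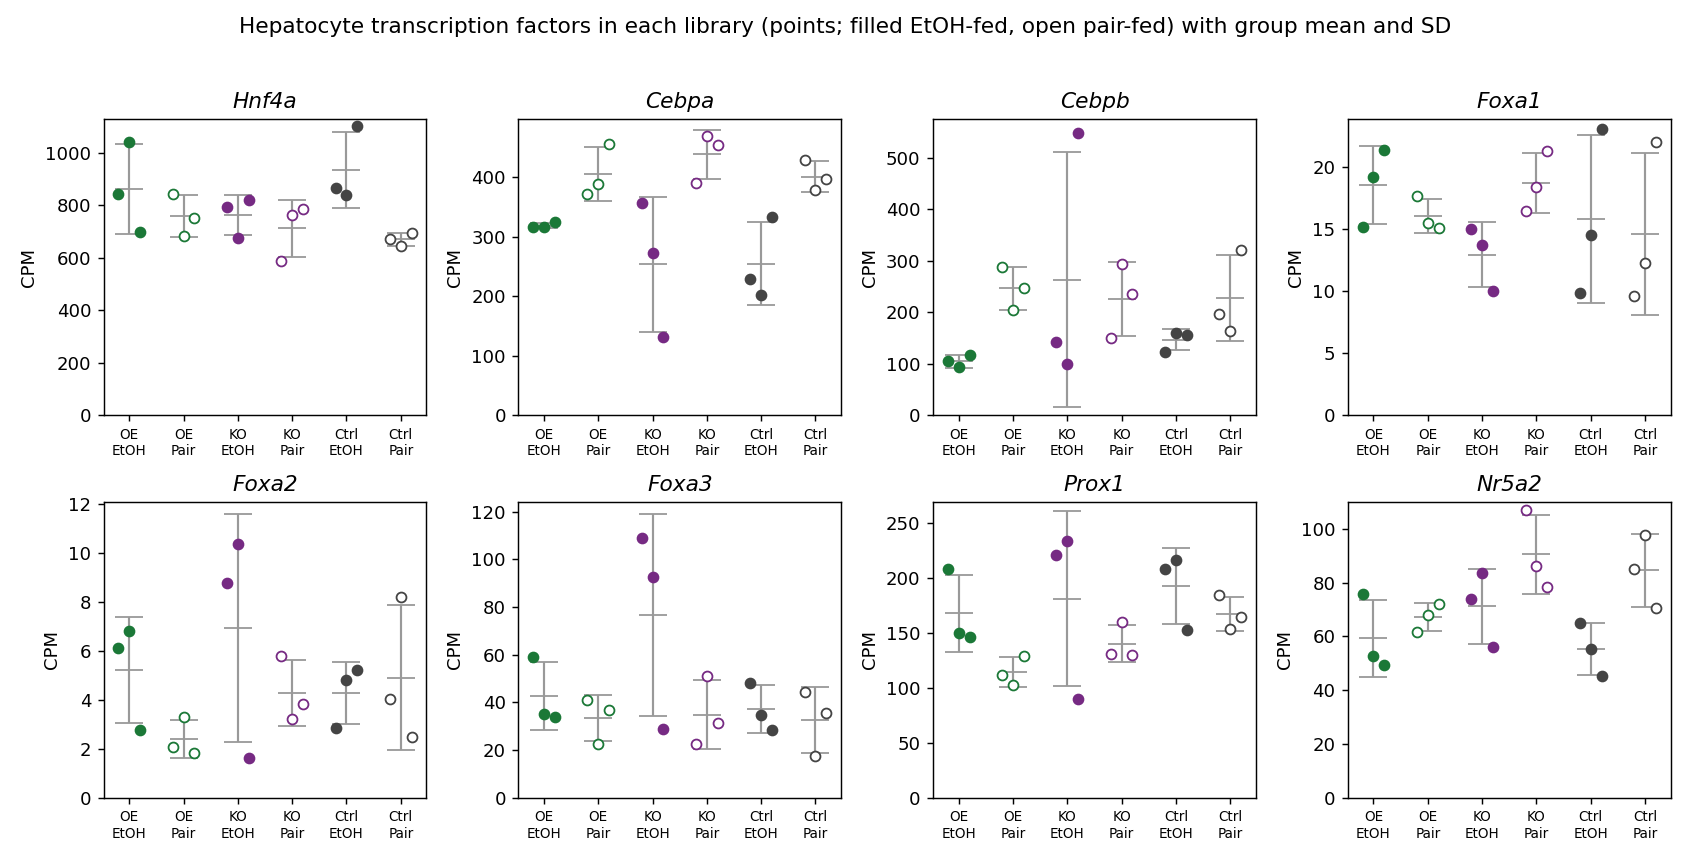
Level in CPM (vertical axes, from 0) of each of the 8 factors in every library, by group; filled points are EtOH-fed and open points pair-fed libraries, and grey bars give the mean and SD of 3 libraries. All 9 filled points of Cebpa, 131.8 to 357 CPM, lie below all 9 open ones, 372 to 469 CPM, and EtOH-fed KO replicate 3 holds the highest Cebpb value, 548 CPM, and the lowest Cebpa, Prox1 and Foxa2 values.

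C/EBPα, encoded by Cebpa, is the basic leucine zipper factor that holds mature hepatocytes out of the cell cycle and drives glycogen and ammonia metabolism. Cebpa had 316, 317 and 324 CPM in EtOH-fed OE livers, against 372, 389 and 457 CPM in pair-fed OE livers. In KO livers it had 357, 272 and 131.8 CPM on ethanol, against 391, 469 and 455 CPM in pair-fed livers. All 3 EtOH-fed libraries of each of these genotypes lay below all 3 pair-fed ones. In Ctrl livers it had 229, 201.4 and 333 CPM on ethanol, against 430, 378 and 396 CPM in pair-fed livers, again without overlap. Cebpa was the only member whose 9 EtOH-fed libraries did not overlap the 9 pair-fed ones, as was true of 1.53% of all genes tested (1.18% lower). Within a genotype it was called in KO mice alone, at -0.90 ± 0.26 (adjusted p = 0.0327), where 9.9% of all genes were called; it stood at -0.34 ± 0.26 in OE mice (adjusted p = 0.592) and -0.69 ± 0.26 in Ctrl mice (adjusted p = 0.163). The differences between these responses were tested as interactions and were not called, at 0.35 ± 0.36 for OE against Ctrl and -0.21 ± 0.36 for KO against Ctrl (adjusted p = 0.910 and 0.956).

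The KO response of Cebpa rested on EtOH-fed KO replicate 3, without which it was -0.49 ± 0.20 and not called (adjusted p = 0.129), while the response over the genotypes stayed called without that library (-0.50 ± 0.11, adjusted p = 0.00300). The order of the 6 group means of Cebpa put the pair-fed groups above the EtOH-fed ones: 439 ± 41.7 CPM in pair-fed KO, 406 ± 44.7 in pair-fed OE, 401 ± 26.2 in pair-fed Ctrl, 319 ± 4.49 in EtOH-fed OE, 255 ± 69.7 in EtOH-fed Ctrl and 254 ± 113.8 in EtOH-fed KO (SD, n = 3). The gap between pair-fed Ctrl and EtOH-fed OE was the only step between neighbours in that order at which the libraries did not overlap. In the libraries with Y-linked reads alone, which leaves the OE and Ctrl genotypes with 1 pair-fed Ctrl library, the response was -0.56. Macrophages also transcribe C/EBP genes, and 8 of the 9 tested Kupffer cell and macrophage markers fell on ethanol over the genotypes, where 13.3% of all genes fell. Of these markers, 0 were called in OE, 8 in KO and 0 in Ctrl mice, with median changes of -0.15, -1.48 and -0.37. Their summed level was 375 to 406 CPM in EtOH-fed against 281 to 618 CPM in pair-fed OE, 166 to 213 against 477 to 592 CPM in KO, and 280 to 552 against 435 to 495 CPM in Ctrl libraries; their part in the Cebpa change was not tested. In whole liver, fewer cells of a type and less RNA per cell cannot be told apart.

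Cebpb encodes C/EBPβ, which takes over from C/EBPα in regeneration and the acute phase response. It had 104.7, 92.7 and 118 CPM in EtOH-fed OE livers, against 288, 204 and 247 CPM in pair-fed OE livers. These ranges did not overlap, and the mean of 105.1 ± 12.6 CPM was the lowest of the 6 groups, below that of EtOH-fed Ctrl (147 ± 19.9 CPM) also without overlap. In KO livers it had 141, 99.5 and 548 CPM on ethanol, against 150, 293 and 236 CPM in pair-fed livers. In Ctrl livers it had 124, 160 and 156 CPM on ethanol, against 197, 163 and 322 CPM in pair-fed livers. The response was -1.22 ± 0.42 in OE (adjusted p = 0.173), -0.14 ± 0.42 in KO (0.867) and -0.58 ± 0.42 in Ctrl mice (0.502), none of them called. The 548 CPM of EtOH-fed KO replicate 3 was the highest Cebpb level of all 18 libraries, where the same library had the lowest Cebpa level. Without it, Cebpb fell over the genotypes by 0.89 ± 0.15 (adjusted p = 0.000675) and stood at -0.87 ± 0.29 in KO mice (adjusted p = 0.0584). In the libraries with Y-linked reads alone, which keep 1 pair-fed Ctrl library, Cebpb fell by 0.83 over OE and Ctrl mice.

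**Figure D2:**
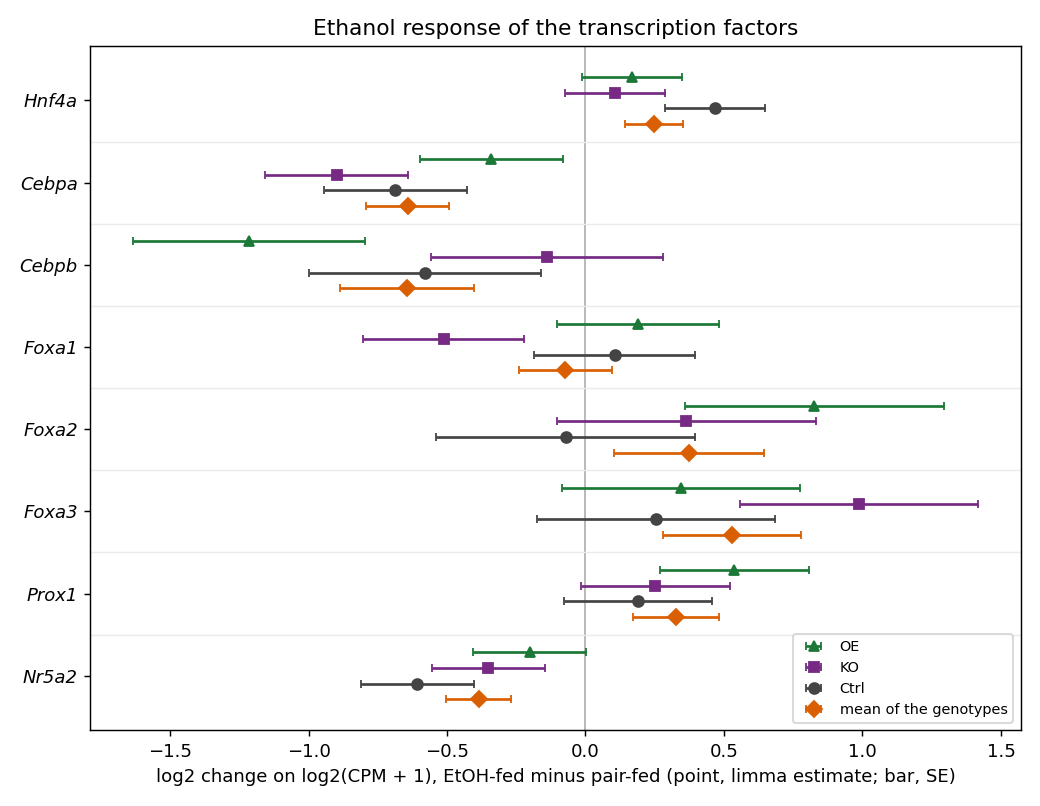
Log2 change on log2(CPM + 1), EtOH-fed minus pair-fed (horizontal axis), of the 8 factors in OE, KO and Ctrl mice and as the mean of the genotypes; points are limma estimates and bars their SE. Cebpa, Cebpb and Nr5a2 lie below 0 in every genotype and Hnf4a, Foxa3 and Prox1 above 0. The errors of a single genotype are wider than those of the mean.

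NR5A2 (LRH-1) is the phospholipid-binding nuclear receptor known for its part in bile acid and cholesterol metabolism, and HNF4A the receptor without which mouse hepatocytes lose lipid export and polarity. Nr5a2 had 75.8, 52.7 and 49.4 CPM in EtOH-fed OE livers, against 61.5, 68.2 and 72.1 CPM in pair-fed OE livers. It had 73.8, 83.7 and 56.0 CPM in EtOH-fed KO livers, against 107, 86.1 and 78.6 CPM in pair-fed KO livers, and both genotypes' ranges overlapped. In Ctrl livers it had 65.0, 55.4 and 45.5 CPM on ethanol, against 85.2, 97.8 and 70.8 CPM in pair-fed livers, with no overlap. Over the genotypes 5 of the 9 EtOH-fed libraries lay below every pair-fed one and none above. The change was -0.20 ± 0.20 in OE (adjusted p = 0.711), -0.35 ± 0.20 in KO (0.288) and -0.61 ± 0.20 in Ctrl mice (0.119). The call of Nr5a2 over the genotypes was close to its threshold: it was lost with TMM factors (-0.30, adjusted p = 0.0584) and with edgeR (-0.30, adjusted p = 0.0693). It was also lost when 1 of 5 libraries was left out (pair-fed Ctrl 2, EtOH-fed Ctrl 3, pair-fed OE 3, EtOH-fed OE 2 or EtOH-fed OE 3, adjusted p = 0.0520 to 0.0587).

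Hnf4a varied least among the 8 factors, with a within-group SD of 0.19 on the log2 scale against a median of 0.34 for all genes tested. It had 844, 1041 and 699 CPM in EtOH-fed OE livers, against 842, 683 and 753 CPM in pair-fed OE livers. It had 795, 676 and 819 CPM in EtOH-fed KO livers, against 589, 761 and 785 CPM in pair-fed KO livers. The ranges overlapped in both genotypes. In Ctrl livers it had 864, 839 and 1102 CPM on ethanol, against 672, 645 and 695 CPM in pair-fed livers, and these did not overlap. The change was 0.17 ± 0.18 in OE, 0.11 ± 0.18 in KO and 0.47 ± 0.18 in Ctrl mice (adjusted p = 0.732, 0.746 and 0.175). Each pair of neighbours in the order of its 6 group means overlapped, down from 935 ± 145 CPM in EtOH-fed Ctrl and 861 ± 171 in EtOH-fed OE to 671 ± 25.0 CPM in pair-fed Ctrl (SD, n = 3). Over the genotypes Hnf4a passed the threshold with quantile normalization (0.30, adjusted p = 0.0341) and with DESeq2 (0.32, adjusted p = 0.0381), both with the direction of the estimate above.

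The promoters of Cebpa and Nr5a2, the factors that fell over the genotypes, and of Hnf4a are given as the 250 bases before an annotated start, from RefSeq on GRCm38.p6. They are set out so that matches to the binding letters of the network's own factors can be seen, with the matched letters in capitals. The letters searched on both strands were CAAAGTCCA for HNF4, TTGCNNAA for C/EBP, TGTTTNC for FOX, CAAGGNCA for NR5A2, GGAATG for TEAD and ATTGAT for ONECUT, beside the longer HNF1 motif. Of all 32851 promoter windows of this length, 0.384%, 9.56%, 17.8%, 5.53%, 12.6%, 6.72% and 0.00913% held a match in that order. Cebpa lies at chr7:35119043-35119292 on the plus strand, the Nr5a2 window shown (of 2) at chr1:136953631-136953880 on the minus strand and the Hnf4a window shown (of 2) at chr2:163506607-163506856 on the plus strand.
Cebpa: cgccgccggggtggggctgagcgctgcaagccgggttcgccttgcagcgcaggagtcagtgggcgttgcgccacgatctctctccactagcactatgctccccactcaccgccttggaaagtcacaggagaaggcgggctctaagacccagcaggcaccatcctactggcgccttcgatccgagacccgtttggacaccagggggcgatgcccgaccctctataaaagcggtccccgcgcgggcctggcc
Nr5a2: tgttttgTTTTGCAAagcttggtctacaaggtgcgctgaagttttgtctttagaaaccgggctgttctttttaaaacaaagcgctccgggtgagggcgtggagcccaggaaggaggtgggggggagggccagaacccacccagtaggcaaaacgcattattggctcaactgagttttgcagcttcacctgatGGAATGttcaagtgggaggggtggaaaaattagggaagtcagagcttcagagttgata
Hnf4a: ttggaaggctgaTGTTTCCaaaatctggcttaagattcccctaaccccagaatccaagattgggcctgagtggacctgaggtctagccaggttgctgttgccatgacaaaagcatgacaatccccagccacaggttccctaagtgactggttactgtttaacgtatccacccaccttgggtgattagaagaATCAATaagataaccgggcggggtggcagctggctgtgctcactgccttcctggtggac
The Nr5a2 window held a C/EBP match from -243 to -236 and a TEAD match from -58 to -53, counted from the start site, and its other window held none. The Hnf4a window held a FOX match from -238 to -232 and an ONECUT match from -59 to -54. The other Hnf4a window, downstream of it at chr2:163546905-163547154, held none. Which start of Nr5a2 or Hnf4a was used in these livers was not measured. The Cebpa window held no match to any of the 7 motifs. The windows with a match were chosen for display from those of Nr5a2 and Hnf4a, and a match is a description of the letters, not a site shown to be bound.

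The 3 FOXA factors, the winged helix proteins that open liver chromatin, were not called in any genotype or over the genotypes with all libraries. Foxa3, which mice need to keep up blood glucose in fasting, had 59.2, 35.2 and 33.8 CPM in EtOH-fed OE livers, against 40.9, 22.4 and 36.7 CPM in pair-fed OE livers. It had 108.8, 92.6 and 28.8 CPM in EtOH-fed KO livers, against 22.4, 50.9 and 31.4 CPM in pair-fed KO livers. The first 2 EtOH-fed KO libraries were above all other 16, and the third lay within the pair-fed KO range. In Ctrl livers it had 48.3, 34.8 and 28.6 CPM on ethanol, against 44.5, 17.5 and 35.6 CPM in pair-fed livers, with overlap. Its change was 0.34 ± 0.43 in OE, 0.99 ± 0.43 in KO and 0.25 ± 0.43 in Ctrl mice (adjusted p = 0.774, 0.152 and 0.810). Without EtOH-fed KO replicate 3 Foxa3 rose in KO mice by 1.58 ± 0.38 (adjusted p = 0.0144) and over the genotypes by 0.73 ± 0.20 (adjusted p = 0.0175). In the libraries with Y-linked reads alone, which keep 1 pair-fed Ctrl library, its change over OE and Ctrl mice was 0.03.

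Foxa2, which in mouse liver is known for its part in bile acid transport and fasting metabolism, rested on 9 to 56 reads a library. It had 6.14, 6.82 and 2.76 CPM in EtOH-fed OE livers, against 2.08, 3.30 and 1.83 CPM in pair-fed OE livers. It had 8.79, 10.4 and 1.63 CPM in EtOH-fed KO livers, against 5.79, 3.21 and 3.83 CPM in pair-fed KO livers. Ctrl livers had 2.85, 4.83 and 5.21 CPM on ethanol, against 4.03, 8.21 and 2.49 CPM in pair-fed livers. The diets overlapped in each genotype, and the change was 0.83 ± 0.47 in OE, 0.36 ± 0.47 in KO and -0.07 ± 0.47 in Ctrl mice, with adjusted p of 0.446, 0.665 and 0.957. Foxa1, its close paralog, had 15.2, 19.2 and 21.4 CPM in EtOH-fed against 17.6, 15.5 and 15.0 CPM in pair-fed OE livers. It had 15.0, 13.7 and 9.97 CPM in EtOH-fed against 16.4, 18.4 and 21.2 CPM in pair-fed KO livers, which did not overlap. Ctrl livers had 9.80, 14.5 and 23.1 CPM on ethanol against 9.63, 12.2 and 22.0 CPM when pair-fed. Its change was 0.19 ± 0.29 in OE, -0.51 ± 0.29 in KO and 0.11 ± 0.29 in Ctrl mice, with adjusted p of 0.824, 0.275 and 0.890.

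Prox1 encodes the homeobox factor that keeps hepatocyte metabolism in check with HNF4A and NR5A2, and it also marks lymphatic endothelium. It had 208, 150 and 146 CPM in EtOH-fed OE livers, against 111.9, 102.6 and 128.7 CPM in pair-fed OE livers, without overlap. It had 221, 233 and 89.6 CPM in EtOH-fed KO livers, against 130.5, 160.0 and 130.3 CPM in pair-fed KO livers. Replicate 3 of the EtOH-fed KO group was the lowest of all 18 libraries and the other 2 were the highest. In Ctrl livers it had 208, 216 and 153 CPM on ethanol, against 184, 153 and 164 CPM in pair-fed livers, with overlap. Prox1 stood at 0.54 ± 0.27 in OE, 0.25 ± 0.27 in KO and 0.19 ± 0.27 in Ctrl mice (adjusted p = 0.371, 0.588 and 0.766). It rose over the genotypes without EtOH-fed KO replicate 3, by 0.47 ± 0.11 (adjusted p = 0.00421), and with all libraries by edgeR (0.45, adjusted p = 0.0403) and DESeq2 (0.44, adjusted p = 0.0265). The 3 measured markers of lymphatic endothelium summed to 91.5 to 102 CPM in EtOH-fed and 62.5 to 157 CPM in pair-fed OE, 62.7 to 112.3 and 47.9 to 70.3 CPM in KO, and 121 to 169 and 44.5 to 75.2 CPM in Ctrl libraries. Of these, Lyve1, which sinusoidal endothelium also expresses, rose and Pdpn, at 0 in 2 libraries, fell over the genotypes; their part in the Prox1 values was not tested.

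Within single genotypes, the counts of members whose EtOH-fed and pair-fed libraries did not overlap were 3 of 8 in OE (Prox1 higher, Cebpa and Cebpb lower), 2 of 8 in KO (Foxa1 and Cebpa lower) and 4 of 8 in Ctrl mice (Hnf4a higher, Nr5a2, Cebpa and Cebpb lower). The same held for 22.4%, 28.5% and 22.1% of all genes tested. By the test, 0 members were called in OE and Ctrl mice, where 1.15% and 2.7% of all genes were (135 and 316 genes). The OE count was 17 without EtOH-fed OE replicate 2, 33 without EtOH-fed OE replicate 3, 34 without pair-fed OE replicate 1 and 27 without pair-fed OE replicate 3. The Ctrl count was 49 without EtOH-fed Ctrl replicate 2, 180 without EtOH-fed Ctrl replicate 3, 99 without pair-fed Ctrl replicate 2 and 168 without pair-fed Ctrl replicate 3. In OE mice 1 of 8 members had an unadjusted p under 0.05, against 14.5% of all genes, and in Ctrl mice 3 of 8, against 18.1%. The barcodes given in the labels fall into 3 ranges that each hold both diets, the first with no EtOH-fed Ctrl library. Within these ranges the log2 change of Cebpa on ethanol, averaged over the genotypes present, was -0.18, -0.63 and -0.84. For Nr5a2 it was -0.12, -0.37 and -0.55, and for Cebpb -0.77, -0.96 and -0.30. For Foxa3 it was 1.38, 0.89 and -0.18 and for Prox1 0.82, 0.52 and -0.15, with EtOH-fed KO replicate 3 in the last of these ranges, and for Hnf4a 0.22, 0.28 and 0.21.

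**Figure D3:**
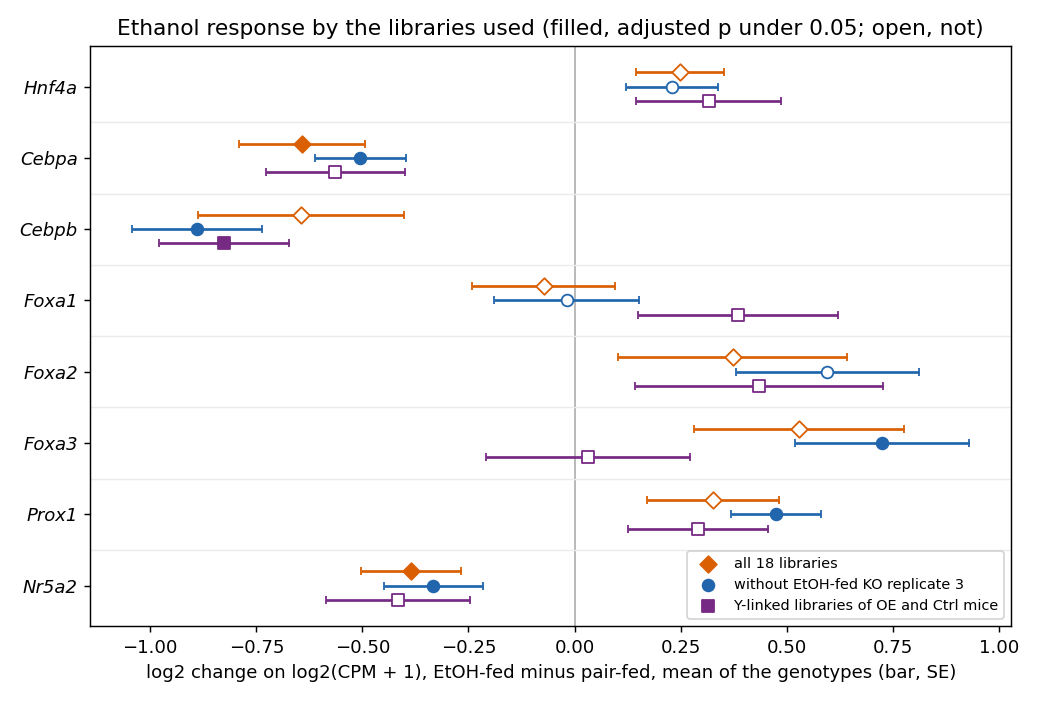
Log2 change on log2(CPM + 1), EtOH-fed minus pair-fed as the mean of the genotypes (horizontal axis), of the 8 factors with all 18 libraries, without EtOH-fed KO replicate 3, and with the Y-linked libraries of OE and Ctrl mice; bars are SE and filled points have an adjusted p under 0.05. Cebpa and Nr5a2 are filled with all libraries, and Cebpb, Foxa3 and Prox1 become so when replicate 3 is left out. The Y-linked set holds 1 pair-fed Ctrl library, so only its estimates are read, not whether its points are filled.

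Yap dosage was asked about next, by comparing OE and KO with Ctrl livers on each diet. No member was called in any of these comparisons. On ethanol, where the OE, KO and Ctrl libraries all had Y-linked reads, OE against Ctrl gave 0 of 8 calls (0.102% of all genes called) and changes of -0.47 ± 0.42 for Cebpb to 0.36 ± 0.26 for Cebpa. The 95% interval of the OE against Ctrl difference was -0.50 to 0.25 for Hnf4a, the narrowest of the 8, and -0.78 to 1.18 for Foxa2, the widest. Cebpb was the single member without overlap, at 105.1 ± 12.6 CPM in OE and 147 ± 19.9 CPM in Ctrl livers (SD, n = 3); 15.0% of all genes showed no overlap. KO against Ctrl on ethanol also gave 0 of 8 calls (0.0171% of all genes). The largest estimate was that of Foxa3, 0.85 ± 0.43 (adjusted p = 0.624), and Hnf4a did not overlap, at 763 ± 76.7 CPM in KO and 935 ± 145 CPM in Ctrl livers, as was true of 13.4% of all genes. Without EtOH-fed KO replicate 3 the Foxa3 difference was 1.44 ± 0.38 (adjusted p = 0.138).

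Among pair-fed livers the groups also differed in sex chromosome genes: all 3 OE libraries had Y-linked reads, all 3 KO libraries had Xist, and the Ctrl libraries were 2 with Xist and 1 with Y-linked reads. There OE against Ctrl gave 0 of 8 calls (0.145% of all genes). Prox1 was lower in OE without overlap, at 114.4 ± 13.2 CPM in OE and 167 ± 15.7 CPM in Ctrl livers (-0.55 ± 0.27, adjusted p = 0.605), against 13.8% of all genes without overlap. With Y-linked libraries alone, which leaves 1 Ctrl library, the Prox1 difference was -0.69. KO against Ctrl gave 0 calls (0.00853% of all genes) and no member without overlap (7.06% of all genes); the estimates lay between -0.26 ± 0.27 for Prox1 and 0.41 ± 0.29 for Foxa1. OE against KO on ethanol gave 0 of 8 calls (1.88% of all genes). Cebpb had the smallest p there, at 105.1 ± 12.6 CPM in OE and 263 ± 248 CPM in KO livers (-0.91 ± 0.42, unadjusted p = 0.0424, adjusted p = 0.303), and the difference was -0.18 ± 0.29 without EtOH-fed KO replicate 3. Foxa1 did not overlap, at 18.6 ± 3.14 CPM in OE and 12.9 ± 2.62 CPM in KO livers (0.50 ± 0.29, adjusted p = 0.445), as was true of 21.4% of all genes. The interactions of ethanol with overexpression and with knockout called 0 members and 0 genes of all 11720, with 847 and 666 genes at an unadjusted p under 0.05 by limma; edgeR also called 0 genes in both, and DESeq2 59 and 2 genes, none of them members. The test of any difference among the 6 groups called 0 of 8 members, with Cebpa at adjusted p = 0.0559 and Nr5a2 at 0.0901, against 12.7% of all genes. These comparisons share Ctrl, OE or KO libraries with each other.

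Some of the factors also varied with each other among libraries of the same group. How many pairs of other genes would pass the same test was not computed, so the count below is not particular to these factors. EtOH-fed KO replicate 3 alone had 748 genes over 2-fold from both other libraries of its group. Of the 28 pairs, 3 passed a permutation test of the deviations from the group means (100000 resamples within groups, two-sided, n = 18 libraries, Benjamini-Hochberg over the pairs). Foxa3 and Prox1 deviated together, with Pearson r = 0.86 (adjusted p = 0.0272) and Spearman rho = 0.85 (adjusted p = 0.0332). Without the 2 libraries farthest from the median of Foxa3, one of them EtOH-fed KO replicate 3, r was 0.81. Cebpb and Foxa2 deviated in opposite directions, with r = -0.86 and rho = -0.82 (permutation test, adjusted p = 0.0311 and 0.0332) and r = -0.71 without the 2 libraries farthest from the median of Cebpb. Cebpb and Nr5a2 did so with r = -0.69 and rho = -0.75 (permutation test, adjusted p = 0.0311 and 0.0448) and r = -0.62 without those libraries. With TMM factors the pair of Foxa3 and Prox1 alone was called (r = 0.88, adjusted p = 0.0151), while Cebpb with Foxa2 gave r = -0.83 (adjusted p = 0.0525) and Cebpb with Nr5a2 r = -0.52 (adjusted p = 0.125). Cebpa and Cebpb, paralogs that bind the same letters, had r = -0.59 with all libraries (adjusted p = 0.636) and r = -0.03 without the 2 farthest from the median of Cebpa. The spread within groups was 0.62 for Cebpb, 0.63 for Foxa3 and 0.65 for Foxa2 on the log2 scale, and 0.25 to 0.38 for Nr5a2, Cebpa, Prox1 and Foxa1.

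**Figure D4:**
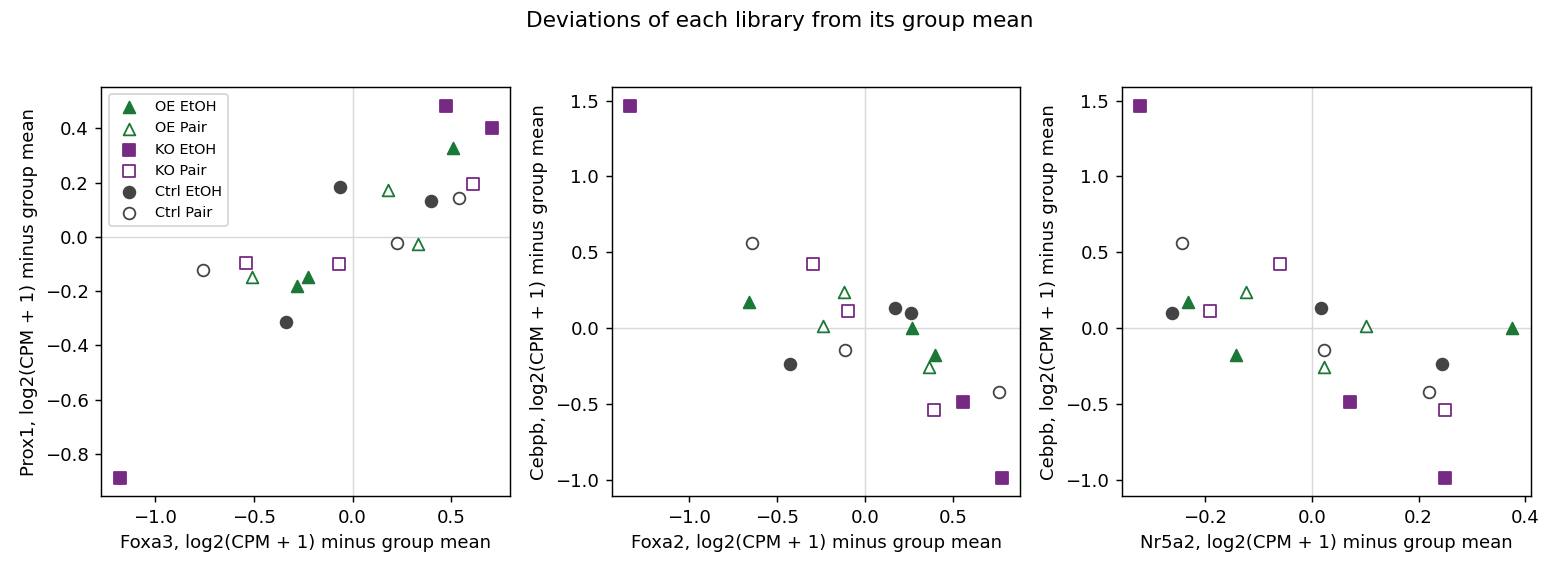
Deviation of each of the 18 libraries from its group mean in log2(CPM + 1), for Prox1 against Foxa3, Cebpb against Foxa2 and Cebpb against Nr5a2; filled marks are EtOH-fed and open marks pair-fed libraries. EtOH-fed KO replicate 3 is the corner point of each panel, with the lowest Foxa3, Prox1, Foxa2 and Nr5a2 deviations and the highest Cebpb deviation; r is 0.86, -0.86 and -0.69.

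Over the 18 libraries, group differences included, the gene most like Cebpa among 8450 of mean at least 5 CPM was Tarsl2 (Pearson r = 0.92 on log2(CPM + 1)), followed by Dennd5b and Fahd1 (both 0.90). Cebpb was most like Foxo1 (0.93), which encodes the transcription factor that insulin keeps out of the nucleus, then Ccni (0.91) and Tnfrsf1b (0.90). Prox1 was most like Hhex (0.88), a homeobox gene of the liver bud, then Nifk and Dnaja3 (both 0.80). Foxa2 was most like Gata4 (0.84), a zinc finger factor of early liver, then Cep170 and Nol11 (both 0.81). Foxa3 was most like Slc20a2, Mak16 and Stk19 (0.87, 0.87 and 0.85), and Nr5a2 most like Sf3b2, Vps33a and Ewsr1 (0.90, 0.89 and 0.89). The closest genes to Hnf4a and Foxa1 were less alike, at 0.76 for Ugt2b35 and 0.76 for Plekho1. These are descriptions across libraries that share diet, depth and sex differences.

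The other transcription factors of the hepatocyte network were measured beside them: 1 of 25 tested rose and 8 fell on ethanol over the genotypes, where 20.5% of all genes were called. The list holds 28 genes, its median change was -0.01 (all genes -0.07), and it was chosen with earlier results of these data known. Xbp1, the factor of the unfolded protein response that also drives lipid synthesis, had 531, 599 and 609 CPM in EtOH-fed against 309, 337 and 309 CPM in pair-fed OE livers, and rose over the genotypes by 0.99 ± 0.09 (adjusted p = 1.4e-06). Klf15, a regulator of amino acid breakdown and gluconeogenesis, had 52.9, 66.5 and 78.9 CPM in EtOH-fed against 247, 158 and 196 CPM in pair-fed OE livers, and fell by 1.24 ± 0.16 (adjusted p = 7.23e-05). Ppara, the fatty acid receptor that turns on oxidation, fell by 0.82 ± 0.14 (adjusted p = 0.000621), at 435 ± 114.1 CPM in EtOH-fed and 825 ± 33.7 CPM in pair-fed OE livers. Bcl6, a repressor that is higher in male than female mouse liver, fell by 1.19 ± 0.20 (adjusted p = 0.000474). Its mean was 14.45 ± 4.44 CPM in EtOH-fed against 68.2 ± 25.5 CPM in pair-fed OE livers, 10.6 ± 4.23 against 30.1 ± 8.65 CPM in Ctrl and 11.4 ± 2.15 against 11.6 ± 4.78 CPM in KO livers, whose pair-fed libraries had Xist. Without EtOH-fed KO replicate 3 the list had 5 higher and 8 lower, and with the sex chromosome term 1 and 1.

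**Figure D5:**
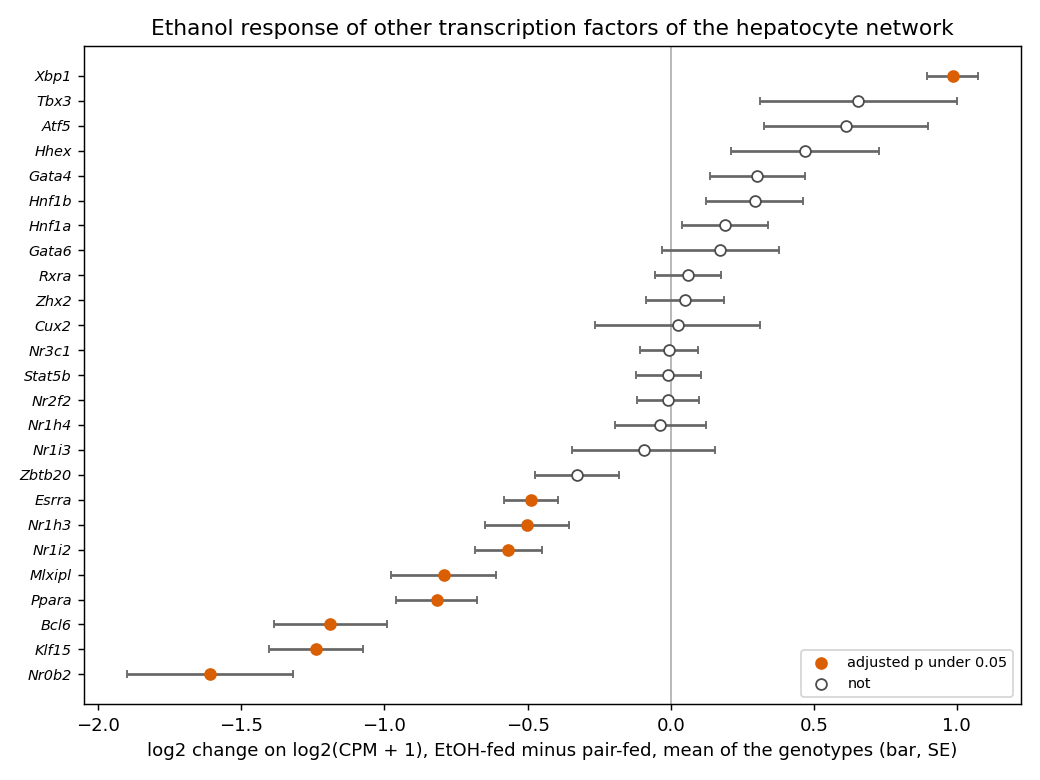
Log2 change on log2(CPM + 1), EtOH-fed minus pair-fed as the mean of the genotypes (horizontal axis), of the 25 tested other transcription factors of the hepatocyte network; bars are SE, filled points have an adjusted p under 0.05. Xbp1 is the filled point above 0 at 0.99, and the 8 filled points below 0 reach -1.61 for Nr0b2.

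Cux2, a repressor known to be higher in female mouse liver, was called in opposite directions in the ethanol responses of OE and KO mice. It had 1.81, 5.89 and 10.3 CPM in EtOH-fed against 0, 0 and 0.183 CPM in pair-fed OE livers, all of them with Y-linked reads (2.51 ± 0.50, adjusted p = 0.0182). In KO mice it had 12.1, 6.31 and 6.53 CPM in EtOH-fed livers, with Y-linked reads, against 51.3, 71.4 and 54.3 CPM in pair-fed livers, with Xist (-2.73 ± 0.50, adjusted p = 0.00250). In Ctrl mice it had 25.5, 35.5 and 14.1 CPM in EtOH-fed livers, all with Y-linked reads, against 8.23, 18.1 and 44.4 CPM in pair-fed livers, the last 2 with Xist (0.29 ± 0.50, adjusted p = 0.814). It was also called in pair-fed OE against Ctrl livers (-4.24 ± 0.50, adjusted p = 0.000761). Among the 8 other C/EBP and PAR bZIP factors, which bind letters close to those of C/EBP, 1 rose and 3 fell on ethanol over the genotypes, with a median of -0.17. Of all genes 7.21% rose and 13.3% fell, with a median of -0.07. Dbp, a clock output factor, fell by 1.99 ± 0.26 (adjusted p = 6.82e-05), at 48.5 ± 10.2 CPM in EtOH-fed and 249 ± 56.0 CPM in pair-fed OE livers. Nfil3, a clock repressor that binds the same sites, rose by 1.05 ± 0.19 (adjusted p = 0.00107), at 34.7 ± 13.6 CPM in EtOH-fed and 17.5 ± 6.49 CPM in pair-fed OE livers. Hlf and Tef fell by 0.68 ± 0.18 and 0.46 ± 0.15 (adjusted p = 0.0105 and 0.0316).

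Genes known to depend on the members were counted in lists of their own. Of 10 genes known to be driven by NR5A2, 4 fell on ethanol over the genotypes and none rose, where 13.3% of all genes fell and 7.21% rose. Their median was -0.50, against -0.07 for all genes. Nr0b2, which encodes the corepressor SHP, had 17.5, 7.0 and 4.65 CPM in EtOH-fed against 22.2, 14.8 and 12.5 CPM in pair-fed OE livers, and 4.21, 4.27 and 5.44 CPM in EtOH-fed against 50.6, 22.7 and 12.5 CPM in pair-fed KO livers. It fell by 1.61 ± 0.29 over the genotypes (adjusted p = 0.000841). Pltp, the phospholipid transfer protein, fell by 1.18 ± 0.23 (adjusted p = 0.00155), Abcg5, a sterol exporter of bile, by 0.47 ± 0.15 (0.0385) and Cyp7a1, the rate-limiting enzyme of bile acid synthesis, by 1.23 ± 0.42 (0.0440). Abcg5 had 155 ± 32.1 CPM in EtOH-fed and 152 ± 54.0 CPM in pair-fed Ctrl livers, and was called in 12 of 31 alternative settings. Leaving out a library gave 2 to 6 that fell, with 6 without pair-fed KO replicate 1, 3 without EtOH-fed KO replicate 3, and 2 without any one of EtOH-fed OE replicates 2 and 3, pair-fed OE replicates 1 and 3, pair-fed KO replicates 2 and 3, EtOH-fed Ctrl replicate 2 and pair-fed Ctrl replicate 3. With TMM factors 2 of the 10 fell, and with the sex chromosome term none was called. Within a genotype, 3 of the 10 fell in KO mice, where 9.9% of all genes were called and diet and sex cannot be told apart. In OE and Ctrl mice 0 of the 10 were called, where 1.15% and 2.7% of all genes were.

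Of 13 genes known to be bound and driven by C/EBP factors, 4 rose and 2 fell, where 7.21% of all genes rose and 13.3% fell. Their median was -0.27, against -0.07 for all genes. The 4 that rose were acute phase genes: Lcn2 by 4.95 ± 0.50, Saa2 by 3.83 ± 0.80, Hp by 0.99 ± 0.17 and Orm1 by 0.89 ± 0.18 (adjusted p = 4.62e-06, 0.00253, 0.000493 and 0.00177). Ttr, which encodes the thyroxine carrier transthyretin, and the glycogen synthase gene Gys2 fell by 0.42 ± 0.12 and 0.60 ± 0.19 (adjusted p = 0.0177 and 0.0315), and neither was called with TMM factors; Gys2 was named after its value was seen. Without EtOH-fed KO replicate 3, 4 rose and 4 fell. Of 19 tested genes known to need HNF4A in mouse liver, 1 rose and 3 fell, near the 20.5% of all genes called, with a median of -0.11. Apoc3, an apolipoprotein, rose by 0.35 ± 0.12, and the coagulation factor gene F11, Ttr and Cyp7a1 fell by 0.72 ± 0.19, 0.42 ± 0.12 and 1.23 ± 0.42. TMM factors gave 2 that rose and 1 that fell, without EtOH-fed KO replicate 3 none rose and 3 fell, and leaving out any other library gave 0 or 1 that rose and 2 to 4 that fell. Apoc3 and Cyp7a1 were each called in 11 of 31 alternative settings. With the sex chromosome term 0 of the 19 were called. Of 10 tested fetal and dedifferentiation markers, 1 rose and 1 fell, again near the 20.5% of all genes called, with a median of -0.22. Sox9, a biliary and progenitor factor, rose by 0.85 ± 0.22 over the genotypes (adjusted p = 0.0095), at 6.32 ± 2.85 CPM in EtOH-fed and 5.12 ± 1.83 CPM in pair-fed OE livers, 16.1 ± 2.97 and 7.71 ± 5.97 CPM in KO and 13.4 ± 2.36 and 5.53 ± 1.41 CPM in Ctrl livers. H19, the fetal noncoding RNA, fell by 0.70 ± 0.18 (adjusted p = 0.0106), with most values near the limit of detection. Its 5 highest values, 0.934 to 2.10 CPM, were those of the 5 libraries with Xist, all of them pair-fed, and the 13 libraries with Y-linked reads had 0 to 0.733 CPM. With the sex chromosome term 0 of the 10 markers were called. OE against Ctrl called 0 of these 10 markers on either diet, where 0.145% of all genes were called on the pair-fed and 0.102% on the ethanol diet. With so few calls, 0 of 10 does not show that the markers were unchanged.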

How the data were processed

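The 18 libraries of mouse liver RNA were read with a targeted panel of 1 amplicon per gene. Per the file headers, the authors' deposited log2 values are log2(RPM + 1) from ampliSeqRNA 5.10.1.2, and their deposited CPM table holds the reads of each gene scaled to a common library total; both gave the same values. Every CPM value was a whole number of reads (tolerance 0.02), and these reads were used for edgeR 4.0.16 and DESeq2 1.42.0. No source used here names the aligner or the genome build.

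The 11720 of 23930 genes that reached 1 CPM in 3 or more libraries were fitted with limma 3.58.1 (R 4.3.3) on log2(CPM + 1), with 1 mean per group, eBayes with a trend, and Benjamini-Hochberg adjustment within each of 11 contrasts and an F test, at a threshold of 0.05. Alternatives changed the filter, pseudocount, scaling, batch and sex terms, tool and libraries used. The members and lists were chosen with earlier results of these data known. The text names the members, Yap1, Cyr61, Ctgf, Xist and Ddx3y, and the 3 genes most like each member. Of each list it names at most the 4 genes of smallest adjusted p per comparison. Gys2 and, in the C/EBP list, Ttr were named beyond this limit after their values were seen. Promoter letters come from RefSeq (GRCm38.p6) and were searched with Python 3.11.15.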

Additional observations from a re-analysis of the deposited data

How the results depend on the processing

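Of 1917 recomputed changes of members, 92 took the other sign, in none of which either value was called. Over the genotypes 2 members were called, beside 20.5% of all genes. TMM factors gave 1 (20.5% of all genes), the sex chromosome term 0 (0.734%) and DESeq2 4 (23.2%). Leaving out a library gave 1 to 5 (1952 to 2499 genes), with 5 without EtOH-fed KO replicate 3. In KO mice Cebpa alone was called, beside 9.9% of all genes. No filter (4.83% of all genes), quantile normalization (11.2%), only the groups compared (6.42%) and edgeR (10.8%) gave 0 members. The sex chromosome term called 0 members and 0 genes. DESeq2 gave 2 members (13.6%), and leaving out a library 0 to 2 (621 to 1209 genes). Only the groups compared gave 1 call in OE mice, Cebpb at -1.22 (adjusted p = 0.00724), against 0. That fit called 2.28% of all genes in OE mice, against 1.15% in the main fit. The test among the 6 groups called 0 members, beside 12.7% of all genes. It gave 1 with DESeq2 (21.7% of all genes). Leaving out a library gave 0 to 4 (1065 to 1645 genes), with 4 without EtOH-fed KO replicate 3. A further alternative left out EtOH-fed KO replicate 3 and pair-fed OE replicate 1, whose Yap1 level lay among the controls. Like the set of Y-linked libraries, which keeps 1 pair-fed Ctrl library, it was chosen after seeing the data. Its calls were 4 over the genotypes, 2 in KO mice, 1 in Ctrl mice and 4 among the groups. The share of all genes called under it is not given here, so these counts are not read as a result about the members. Of the 3 member pairs, 1 was called with TMM factors. The causes of these changes were not tested.

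Same-numbered libraries correlated at -0.27 to 0.28 and others at -0.40 to 0.46 in their deviations. These overlapping ranges cannot show whether the replicate numbers pair the libraries. The replicate block gave 3 members called over the genotypes, with Cebpb at -0.64 (adjusted p = 0.0433), Cebpa at adjusted p = 0.00837 and Nr5a2 at 0.0138. A term for the barcode range also brought Cebpb under the threshold (adjusted p = 0.0458). The barcode range followed the replicate number in every library but EtOH-fed Ctrl replicate 1, so these terms are nearly the same. Counts over all genes depended on the libraries and the fit. Leaving out a library gave 49 to 281 genes in Ctrl mice (49 without EtOH-fed Ctrl replicate 2), 17 to 149 in OE mice (17 without EtOH-fed OE replicate 2), 621 to 1209 in KO mice (628 and 623 without EtOH-fed KO replicates 1 and 2, 621 without pair-fed KO replicate 2), 1952 to 2499 over the genotypes and 1065 to 1645 among the groups. Between genotypes it gave 83 to 271 in OE against KO on ethanol, 5 to 86 and 0 to 10 in OE against Ctrl on pair-fed diet and ethanol, and 0 to 2 and 1 to 36 in KO against Ctrl. The sex chromosome term rested on pair-fed Ctrl alone, so calls lost under it cannot show what goes with sex. It called 86 genes over the genotypes against 2406, 0 in KO mice against 1160 and 23 in Ctrl mice against 316. Among the 6 groups it called 332 against 1493. DESeq2 called 2545 among the groups, 587 in Ctrl mice, 363 in OE mice against 135, 488 in OE against KO on ethanol against 220, 95 in pair-fed OE against Ctrl where limma called 17, and 1.07% of genes in OE against Ctrl on ethanol where limma called 0.102%. It called 47 in KO against Ctrl on ethanol against 2, and no members in the comparisons between genotypes. Only the groups compared called 753 in KO, 140 in Ctrl and 267 in OE mice, and no filter 57 in OE mice.

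Depth of 9 to 56 reads limits Foxa2, and 3 libraries a group limit every comparison within a genotype.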
